A study of Mus musculus with 8 samples.

Results

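The genes of the AP-1 transcription factors were examined here for binding of ASH2L. They are Fos, Fosb, Fosl1 and Fosl2 of the FOS family, Jun, Junb and Jund of the JUN family, and Batf and Batf3 of the BATF family. They make up 9 of 21938 protein-coding genes on the assembled mouse chromosomes, and were chosen by name with earlier results of these data known. The question put to the data was whether the genes that encode these factors carry ASH2L sites themselves, since the DNA letters that AP-1 reads occur in sites far from any gene start. ASH2L belongs to the KMT2 histone methyltransferase complexes, which act on lysine 4 of histone H3. It was profiled by chromatin immunoprecipitation and sequencing (ChIP-seq) in iMEF cells, immortalised mouse embryo fibroblasts that carry floxed Ash2l and a Cre-ER recombinase. In the cells of every group exon 4 of Ash2l had been deleted, and a lentiviral FKBP12F36V-tagged human ASH2L took the place of the endogenous protein, in lines that the study derived from single clones. The 8 libraries were ASH2L precipitates and inputs, 2 each without dTAG and 2 each with dTAG for 1 h, where dTAG is a compound that leads to degradation of the FKBP-tagged protein. The values analysed are the positions of 6444 sites that the authors compiled over all samples, with no signal, score or sample per site.

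A site therefore says that ASH2L was called there in the pooled list, and neither its strength nor its change with dTAG was analysed here. Values have no replicate error for the same reason, the depth of the libraries is not shown by positions, and no test was run. The fibroblast label of the cells could not be checked, because positions hold no expression of marker genes. Genes and sites are not replicates of a condition, so counts below describe this list, and 6428 of the sites, those on the assembled chromosomes, were used.

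AP-1 is a dimer of basic leucine zipper proteins. FOS proteins cannot pair with themselves and need a JUN partner, whereas JUN proteins also form dimers with each other, and BATF proteins, which lack a transactivation domain, pair with JUN proteins mainly in lymphocytes and dendritic cells. Many of these genes are immediate early genes, transcribed within minutes of a growth or stress signal from promoters that hold paused RNA polymerase, and FOSL1 and FOSL2, also called FRA1 and FRA2, are the longer lasting FOS family proteins of fibroblasts.

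Of the 9 genes, 2 had an ASH2L site centred within 1 kb of an annotated transcription start site (TSS), called a promoter site here. These were Jun and Fosl1. The same held for 14.0% of all protein-coding genes and for 19.0% of those whose TSS had a CpG island within 1 kb, so that 2 of 9 genes is a count near the background. With the window widened to 3 kb Fosl2 was added, giving 3 of 9 genes against 15.4% of protein-coding genes. The same 3 genes held a site within the gene body, against 15.8% of protein-coding genes. Within 50 kb of the gene, Fosb and Batf3 joined them, which made 5 of 9 genes against 40.2% of protein-coding genes. Fos, Junb, Jund and Batf had no site in that range. Hence 10 distinct sites lay within 50 kb of an AP-1 gene, of which 4 were inside Jun, Fosl1 or Fosl2, 4 were at the starts of neighbouring genes and 2 were elsewhere.

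**Figure D1:**
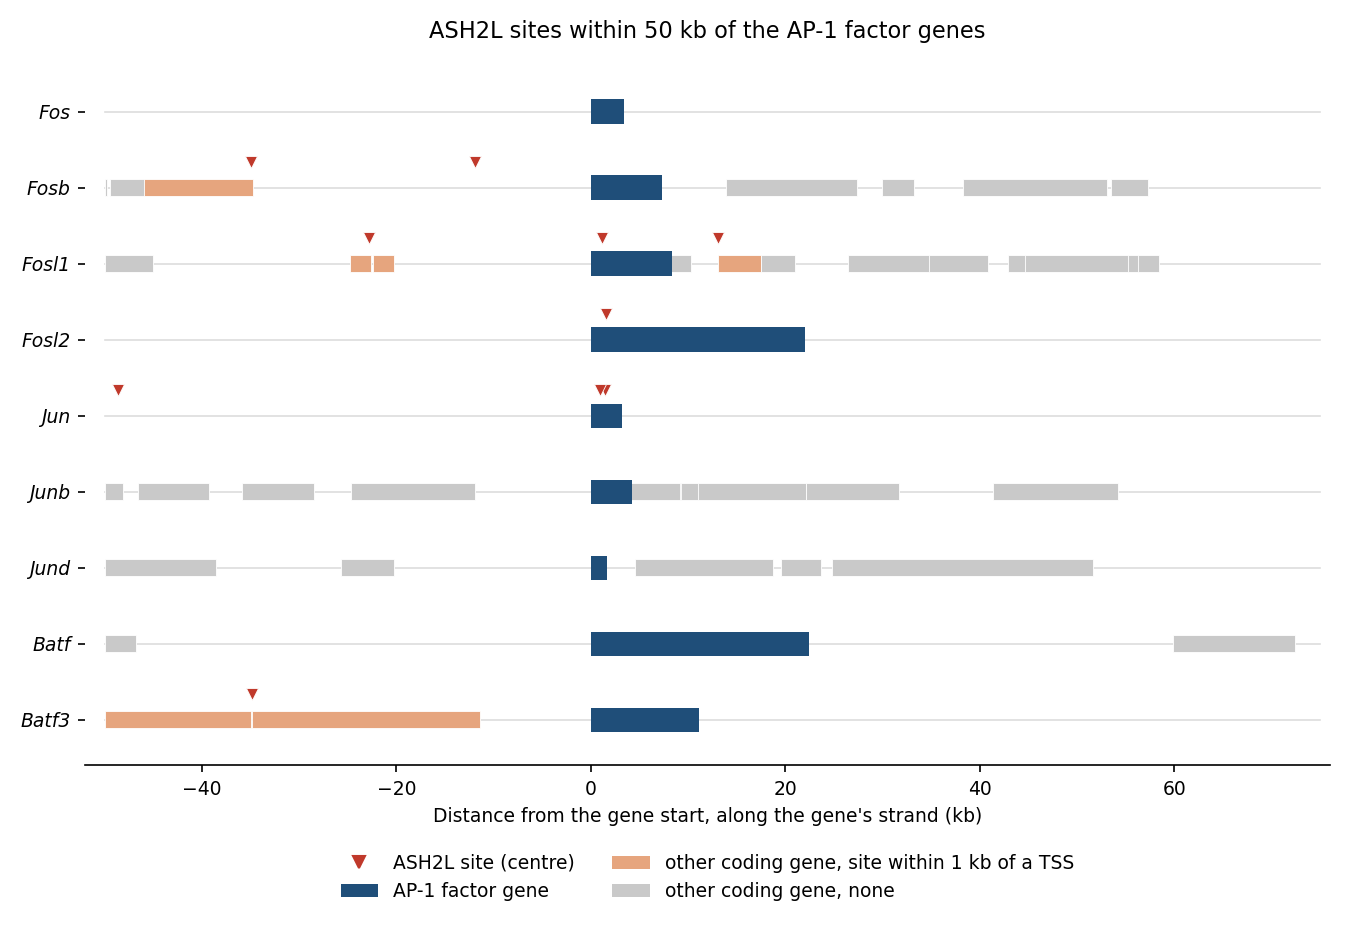
Map of 50 kb on either side of the 9 AP-1 factor genes, drawn along each gene's strand with distance from the gene start in kb, with site centres as red triangles, the named gene in blue and other protein-coding genes in orange (with a promoter site) or grey (without); antisense and other non-coding genes are not drawn. Sites inside the gene are seen in Fosl1, Fosl2 and Jun, and the rows of Fos, Junb, Jund and Batf have none.

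Jun encodes c-JUN, the main JUN partner of FOS proteins and the substrate of the JNK kinases. It is a gene of a single exon on the minus strand of chromosome 4 (mm10, chr4:95049034-95052222) and has a single TSS. Of its 3 sites within 50 kb, 2 lay inside the gene, downstream of the TSS. The wider of these, of 613 bp, was at chr4:95050976-95051588 and was centred 940 bp from the TSS and -11 bp from the start codon, which itself lies 951 bp into the transcript. It covered 317 bases of the 5′ untranslated region and 296 bases of coding sequence. The narrower site, of 404 bp at chr4:95050524-95050927, was centred 1496 bp from the TSS and was coding over its whole length. The sites were 48 bp apart, and together they covered 1017 bp. Holding at least 2 sites in the gene body was shared by 715 of 21938 protein-coding genes (3.26%).

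The antisense transcript gene Junos starts inside Jun on the opposite strand. The wider Jun site was centred at -252 bp from the Junos TSS, that is upstream of it, and the narrower at -808 bp, both nearer to that TSS than to the start of Jun. A ChIP site has no strand, so whether these sites belong to Jun or to Junos cannot be told apart. The coding bases of the wider site and the central 300 bases of the narrower site are printed next, because these are the stretches of an AP-1 gene that carried 2 neighbouring ASH2L sites. Both are mm10 sequence from chromosome 4, written 5′ to 3′ on the strand of Jun (minus), with CpG dinucleotides in capitals. The stretch of the wider site, chr4:95050976-95051271, begins at the start codon.
Jun wider site, coding part: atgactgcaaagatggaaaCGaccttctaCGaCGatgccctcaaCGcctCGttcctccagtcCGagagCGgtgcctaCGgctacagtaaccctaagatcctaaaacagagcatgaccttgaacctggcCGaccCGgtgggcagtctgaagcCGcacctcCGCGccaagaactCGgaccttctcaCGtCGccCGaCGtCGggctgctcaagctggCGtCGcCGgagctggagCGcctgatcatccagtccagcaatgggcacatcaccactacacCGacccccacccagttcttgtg
Jun narrower site, chr4:95050576-95050875: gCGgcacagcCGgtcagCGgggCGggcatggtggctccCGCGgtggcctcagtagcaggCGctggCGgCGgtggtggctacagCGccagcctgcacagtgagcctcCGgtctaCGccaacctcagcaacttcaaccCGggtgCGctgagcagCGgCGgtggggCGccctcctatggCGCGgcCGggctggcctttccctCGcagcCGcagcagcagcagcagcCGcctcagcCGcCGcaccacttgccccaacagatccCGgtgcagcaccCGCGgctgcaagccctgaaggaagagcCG

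The coding part of the wider site held 24 CpGs in 296 bases, and the printed bases of the narrower site held 29 in 300. Over its full width the wider site held 57 CpGs at a GC content of 62.6%, and the narrower held 39 at 70.8%. Both lay wholly within a CpG island of 3575 bp that reached from -1178 bp to 2396 bp relative to the Jun TSS. In width the 613 bp site was among the wider ones, since 10.5% of all sites within 1 kb of a TSS were at least as wide, while for the 404 bp site this share was 28.1%. Promoter sites of all genes had a median width of 304 bp, with quartiles of 230 and 423 bp.

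Fosl1 encodes FRA1. The gene is on the plus strand of chromosome 19 (chr19:5447547-5455946), and its site of 225 bp lay at chr19:5448614-5448838 in the first intron. The site was centred 1179 bp from the gene start and 805 bp from the most downstream TSS of the gene, which belongs to a transcript with a retained intron. It was therefore a promoter site only by way of that transcript. From the TSS in RefSeq it was centred 1028 bp away. The site held 20 CpGs at a GC content of 65.3% and lay wholly within the CpG island of 1606 bp at the start of the gene. It is printed whole, on the plus strand with CpGs in capitals, as the only site inside a FOS family gene that was classed as a promoter site.
Fosl1 site: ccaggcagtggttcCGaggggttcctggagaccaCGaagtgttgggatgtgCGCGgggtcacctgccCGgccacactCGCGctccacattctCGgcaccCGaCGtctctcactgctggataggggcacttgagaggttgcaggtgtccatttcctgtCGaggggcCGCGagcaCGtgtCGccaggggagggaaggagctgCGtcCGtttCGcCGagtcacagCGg

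Fosl2 encodes FRA2, and it lies on the plus strand of chromosome 5 (chr5:32135801-32157842). Its site, of 463 bp, was centred 1543 bp from the gene start and 640 bp past the start codon. These bases belong to the first intron of the coding transcript, and another transcript, with a retained intron, has them as exon. The nearest TSS in GENCODE was 1171 bp away, which placed the site outside the promoter window. In RefSeq the gene starts 671 bp farther downstream, and the site was then centred 872 bp from the TSS, inside the window. With RefSeq TSSs the genes with a promoter site were thus Jun and Fosl2, again 2 of 9, while 13.7% of the protein-coding genes with a curated RefSeq TSS had one. That setting was chosen after the data were seen.

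The Fosl2 site differed in composition from those in Jun and Fosl1. It held 12 CpGs in 463 bp at a GC content of 56.4%, and it lay partly, for 48.4% of its length, in a small CpG island of 285 bp. The larger island at the gene start, of 2153 bp, ended before the site. Among sites between 1 and 3 kb from a TSS, 14.5% were at least as wide, the median being 261 bp.

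The sites in these 3 genes thus shared a position downstream of the gene start, beyond the start codon in Fosl1, Fosl2 and the narrower site of Jun. Across the genome 3032 protein-coding genes had a site within 3 kb of the gene start. For these the nearest site was centred at a median of 177 bp downstream, with quartiles of 6 and 423 bp, and 72.9% lay within 500 bp on either side. The 940 bp of Jun were reached or exceeded downstream by 9.20% of those genes, the 1179 bp of Fosl1 by 6.30% and the 1543 bp of Fosl2 by 3.89%. These shares and their order depend on the GENCODE gene start. The Fosl1 site was 805 bp from the nearest TSS of its gene, and the Fosl2 site 872 bp from its RefSeq TSS. None of the 9 genes had a site centred within 500 bp of a TSS of its own, a window in which 12.5% of all protein-coding genes had one. For 9 genes such a count is near the background.

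**Figure D2:**
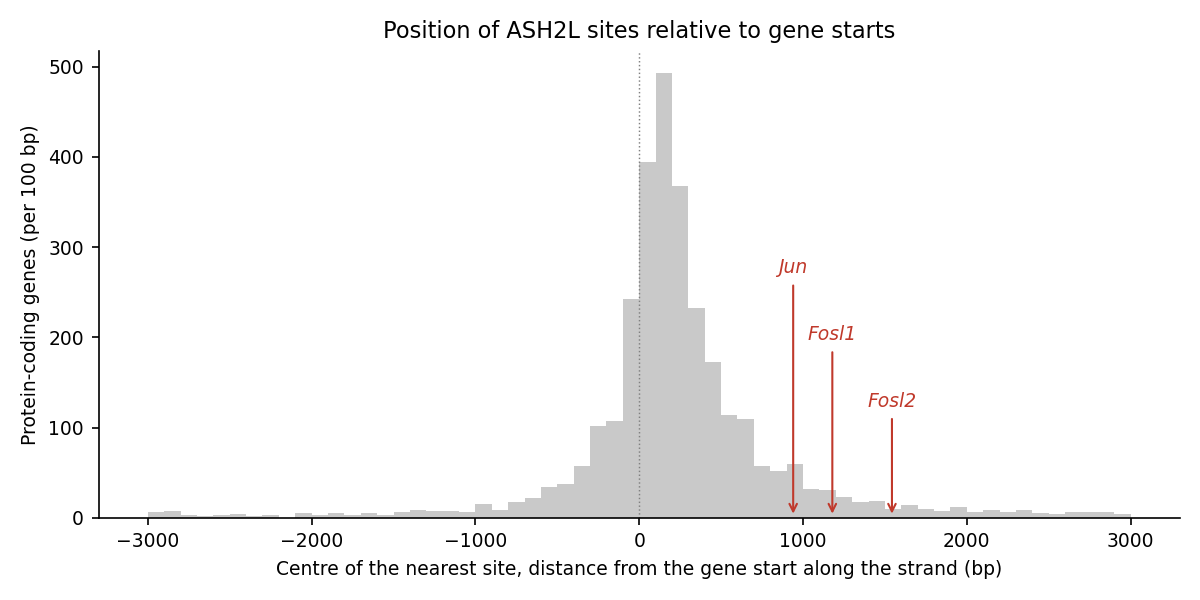
Number of protein-coding genes, per 100 bp, by the distance of the nearest ASH2L site centre from the gene start in bp, positive along the gene's strand, for the 3032 genes with a site within 3 kb. The bulk of the genes lies close to the start. Measured from the GENCODE gene start, the arrows for Jun (940 bp), Fosl1 (1179 bp) and Fosl2 (1543 bp) stand in the downstream tail.

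**Figure D3:**
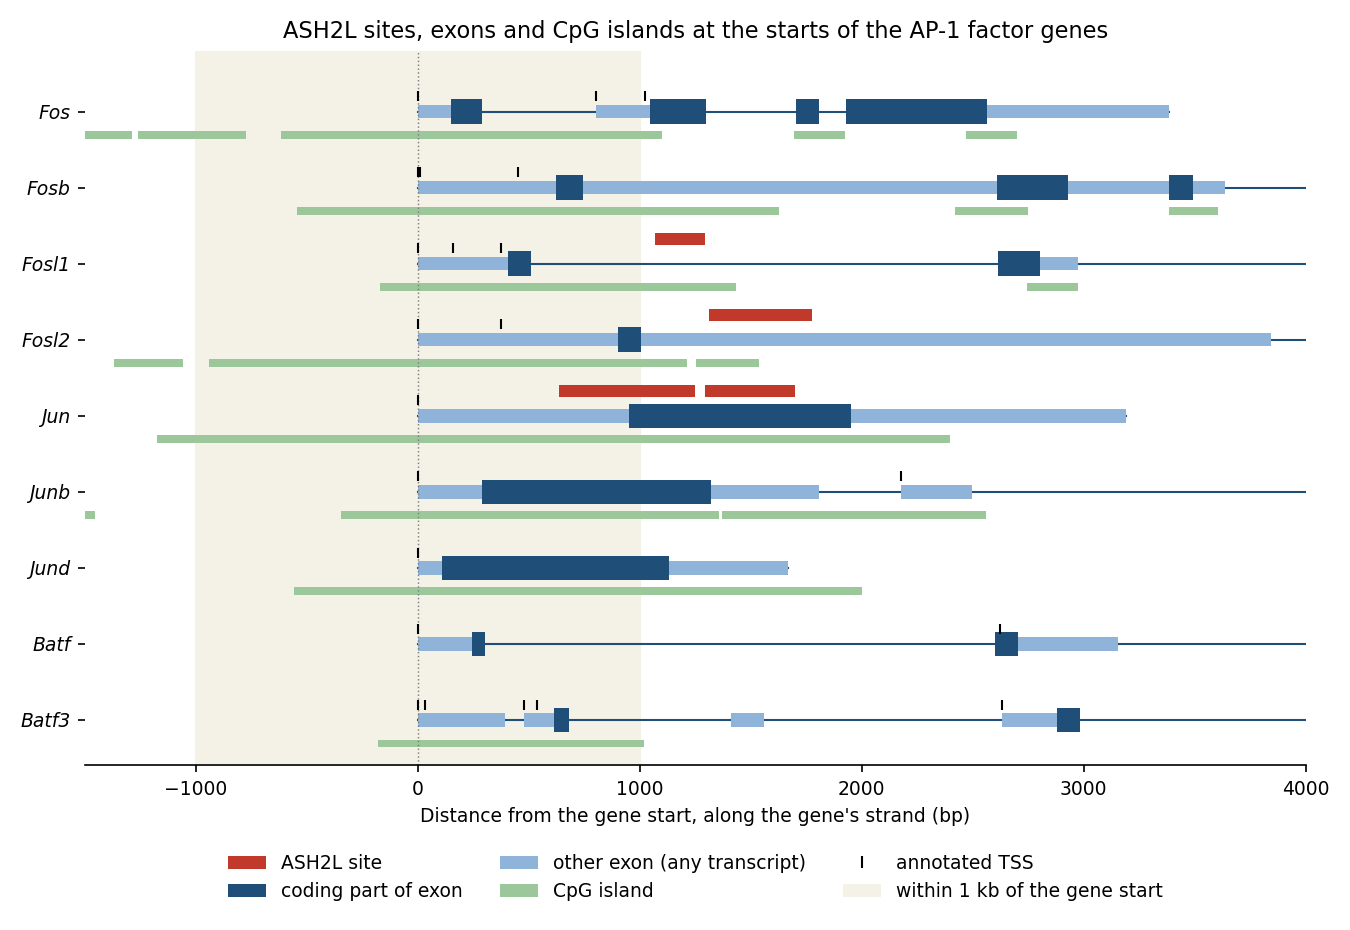
The first 4 kb of the 9 AP-1 factor genes along the gene's strand in bp from the gene start, with ASH2L sites in red, coding exon parts in dark blue, other exons of any transcript in light blue, CpG islands in green and annotated TSSs as ticks. The 4 sites stand downstream of the start in Fosl1, Fosl2 and Jun, while CpG islands cover the start of every gene but Batf.

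CpG islands were found within 1 kb of a TSS in 8 of the 9 genes, the exception being Batf, and in 73.4% of all protein-coding genes. The island at the gene start measured 1716 bp in Fos, 2172 bp in Fosb, 1704 bp in Junb, 2559 bp in Jund and 1200 bp in Batf3, and none of these 5 genes had a site within 3 kb. In the genes with a site in that range, it measured 3575 bp in Jun, the longest of the 9, 2153 bp in Fosl2 and 1606 bp in Fosl1. The lengths thus overlapped between genes with and without a site, and a link with island length was not tested. In the 1 kb on either side of the gene start, the ratio of observed to expected CpGs was 0.858 in Jun, 0.577 in Fosl1 and 0.949 in Fosl2. The genes with an island and no site within 3 kb lay in the same range, with 0.658 in Fos, 0.705 in Fosb, 0.684 in Junb, 0.838 in Jund and 0.642 in Batf3, and Batf was lowest at 0.332. The promoter sites of Jun and Fosl1 both overlapped an island, as did 89.0% of all promoter sites.

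Fos encodes c-FOS, the classical immediate early AP-1 subunit. The gene (chr12:85473890-85477273, plus strand) had no site within 50 kb. The nearest was 99.3 kb upstream at the start of Tmed10, and the site on the other side was that near Ift43, so that Fos and Batf, which share this stretch of chromosome 12, lay in 754 kb without a site. At least as far from a site were 46.3% of all protein-coding genes. Fosb, which encodes FOSB, lies on the minus strand of chromosome 7 (chr7:19302696-19310051) and had no site within 3 kb. A site of 200 bp, the smallest width in the list, was centred at -11928 bp from its TSS, upstream. It was the only distal site near an AP-1 gene, distal meaning farther than 3 kb from every TSS, and it overlapped no CpG island. Of all distal sites 33.3% had this smallest width.

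Junb and Jund encode the other JUN proteins, both known to oppose proliferation in fibroblasts in some settings. Both are compact genes on chromosome 8, Junb on the minus strand (chr8:84974484-84978718) and Jund on the plus strand (chr8:70698949-70700616), and neither had a site within 100 kb. The nearest to Junb was 129.7 kb away, at the start of Calr, and 40.3% of protein-coding genes were at least as far from a site. The nearest to Jund was 196.6 kb away, a distance that 31.1% of genes reached. Within the JUN family, Jun alone had sites in its gene.

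Batf (chr12:85686669-85709087, plus strand) was farthest from a site among the 9 genes, at 312.1 kb, and 21.4% of protein-coding genes were at least as far. Batf3 (chr1:191097847-191108945, plus strand), known for its part in the development of dendritic cells, had no site closer than 34.8 kb. That site belonged to the start of Nsl1, as described next.

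Several of the sites counted within 50 kb stood at the TSS of another gene. The site at -34950 bp from the start of Fosb, 502 bp wide at chr7:19344750-19345251, was centred -100 bp from the TSS of Ercc1, which encodes a subunit of a DNA repair nuclease. On either side of Fosl1, a site of 239 bp (chr19:5424589-5424827) was centred 51 bp from the TSS of Drap1, a transcriptional corepressor subunit, and a site of 251 bp (chr19:5460477-5460727) was centred -13 bp from that of Fibp, a protein that binds a fibroblast growth factor. The site upstream of Batf3, of 404 bp at chr1:191062850-191063253, was centred 21 bp from the TSS of Nsl1, a kinetochore protein. All 4 overlapped a CpG island, and all were centred within 100 bp of the neighbour's TSS, the trait by which they were grouped here. The sites inside Jun, Fosl1 and Fosl2 were farther from the starts of those genes. The wider Jun site, however, was centred at -252 bp from the TSS of Junos. Of the other protein-coding genes with a TSS within 50 kb, 1 of 6 near Fosb, 3 of 11 near Fosl1 and 2 of 2 near Batf3 had a promoter site, and a pair of genes that start back to back can share a site. Near Junb 0 of 9 had a promoter site and near Jund 0 of 5, of which 9 and 4 had a CpG island, and the background for genes with an island is 19.0%. Fos, Fosl2 and Jun had no other protein-coding gene with a TSS within 50 kb, and Batf had 1 such gene, without a promoter site.

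The AP-1 letters themselves, TGACTCA or TGAGTCA on the other strand, were found in the central 200 bp of 1 of the 10 sites. Among all sites they stood in 2.13% of promoter sites, in 6.80% of those at 1 to 3 kb and in 11.6% of distal sites. The site that held them was the most distant site of Jun, centred at -48665 bp from its TSS at chr4:95100787-95100986, 200 bp wide, inside Junos and 2183 bp from another TSS of that gene. It held 0 CpGs at a GC content of 43.5%. The whole site follows on the minus strand, the AP-1 letters in capitals, since it was the only site near an AP-1 gene that carried the letters its own product reads. The match stands at -48690 bp from the TSS of Jun.
Jun upstream site: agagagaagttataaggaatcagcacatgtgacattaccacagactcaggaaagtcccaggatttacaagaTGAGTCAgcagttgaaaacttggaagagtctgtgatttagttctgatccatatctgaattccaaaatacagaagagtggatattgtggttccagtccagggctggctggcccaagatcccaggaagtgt

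A further match lay just outside the Fosl1 site, 132 bp from its centre and 1311 bp from the gene start, in the printed context on the plus strand at chr19:5448855-5448861, where it falls beyond the end of the site.
Fosl1, beside the site: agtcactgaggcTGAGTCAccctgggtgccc

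Distal sites with the AP-1 letters lay within 50 kb of 0 of the 9 genes and of 361 protein-coding genes in all (1.65%), so a count of 0 among 9 is near the background. The Jun upstream site printed above was not counted here. It lies 2183 bp from a TSS of Junos and so is not distal. The nearest to Junb was 473 kb away, that to Jun 1170 kb and that to Jund 2590 kb, and 89.1%, 78.2% and 61.3% of the protein-coding genes on chromosomes with such a site were at least as far from one. The other 6 genes were farther away, from 5110 kb for Fos to 11100 kb for Fosl1, distances that 41.0% and 15.2% of those genes reached. The median over those genes was 3920 kb.

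Known control elements were looked for in the 500 bases before the gene starts, where none of the 9 genes had a site centre. The CArG box, which SRF binds, was present upstream of Fos and Fosb, and in 2.70% of all protein-coding genes. Its first base was -309 bp from the start of Fos and -266 bp from that of Fosb. The CRE letters TGACGTCA were found upstream of Jund, -214 bp from its start, and in 2.22% of all genes. The AP-1 letters were found upstream of none of the 9 genes, against 7.54%, and the ETS letters CCGGAAGT of none, against 3.73%. The variant TGACATCA (TGATGTCA on the other strand), through which c-JUN is known to act on its own gene, began -45 bp from the start of Jun and occurred in 4.03% of all genes; it was searched for after the Jun sequence had been seen. These motifs were matched on both strands and do not overlap each other in the printed stretches. A match is only a description of the letters. The stretches are mm10 sequence on each gene's strand with the matched letters in capitals, and they show the elements of the autoregulated Jun and of the SRF-controlled Fos and Fosb where no ASH2L site was listed.
Jun, chr4:95052223-95052472, minus strand: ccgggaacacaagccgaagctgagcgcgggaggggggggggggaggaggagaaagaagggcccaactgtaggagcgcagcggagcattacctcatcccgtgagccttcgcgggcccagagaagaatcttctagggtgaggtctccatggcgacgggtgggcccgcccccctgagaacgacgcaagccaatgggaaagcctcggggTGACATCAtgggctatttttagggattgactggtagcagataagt
Fos, chr12:85473540-85473739, plus strand: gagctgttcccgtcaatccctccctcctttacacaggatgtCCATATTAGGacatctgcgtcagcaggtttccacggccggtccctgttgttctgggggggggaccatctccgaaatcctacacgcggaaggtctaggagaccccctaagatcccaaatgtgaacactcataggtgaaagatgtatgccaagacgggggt
Fosb, chr7:19310202-19310401, minus strand: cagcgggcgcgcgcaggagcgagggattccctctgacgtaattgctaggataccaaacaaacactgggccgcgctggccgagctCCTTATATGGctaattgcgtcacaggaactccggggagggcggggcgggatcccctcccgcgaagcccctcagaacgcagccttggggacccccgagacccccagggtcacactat

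RefSeq promoters of GRCm38.p6, from 250 bases before to 50 after the TSS, were matched by symbol for 8 of the 9 genes, Fosl1 having no entry. None of the 8 held the AP-1, CRE, CArG or ETS letters. The CArG boxes given above for Fos and Fosb lie just upstream of this window. For Jund the RefSeq TSS lies at -1210 bp from the GENCODE start, so the CRE letters given above for Jund are downstream of the RefSeq TSS and outside this window. Of 32851 mouse promoters of that length, 5.20% held the AP-1 letters, 1.79% the CRE letters, 1.63% a CArG box and 3.89% the ETS letters.

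Proteins that act with AP-1 were followed in 4 lists, namely 13 dimer partners, 14 kinases that signal to AP-1, 13 regulators of AP-1 genes and 15 genes known as AP-1 targets. In all, 13 of 55 genes (23.6%) had a promoter site, beside 14.0% of all protein-coding genes. All 13 were among the 50 listed genes with a CpG island, for which the background is 19.0%. Within 50 kb a site was found for 7 of the 13 dimer partners, 2 of the 14 kinases, 7 of the 13 regulators and 6 of the 15 targets, beside 40.2% of all protein-coding genes, so that most genes in the genome have none at that distance.

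Among the dimer partners 4 of 13 had a promoter site (30.8%). They were Atf2, a JUN partner that stress kinases phosphorylate, with a site of 246 bp, Atf4, a factor of the amino acid and stress response, with 2 sites of which the wider was 567 bp, Maf, a large MAF protein, with 2 sites and a wider one of 563 bp, and Mafg, a small MAF protein, with a site of 244 bp. The wider Maf site was centred 810 bp from its nearest TSS and 1508 bp from the gene start, an offset of the same order as in Jun and Fosl2. Atf3, Jdp2 and Batf2, which like FOS pair with JUN proteins, had no site within 50 kb. Atf7, Mafk and Nrl of the same list had a site in that range but no promoter site.

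Of the kinases 2 of 14 had a promoter site (14.3%). Of these, Map2k2, which encodes the ERK activator MEK2, had a site of 200 bp centred 162 bp from its TSS. The JNK genes Mapk8, Mapk9 and Mapk10 had no site within 50 kb. Among the regulators 4 of 13 had a promoter site (30.8%). They were Creb1 and Atf1, which bind CRE letters, with widest sites of 501 and 207 bp, and the MADS-box factors Mef2a and Mef2c, with sites of 294 and 329 bp. Srf, which binds the CArG boxes of Fos and Fosb, and its ETS family partners Elk1, Elk3 and Elk4 had no site within 50 kb. The regulators Mrtfa, Crem and Stat3 had a site in that range but no promoter site.

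Of the target genes 3 of 15 had a promoter site. Vegfa, which encodes an endothelial growth factor, had a site of 435 bp centred 666 bp from a TSS. Hmga1, which encodes an architectural chromatin protein, had a site of 378 bp centred 474 bp from a TSS. The matrix metalloproteinase genes Mmp3, Mmp9, Mmp10 and Mmp13 and the cyclin gene Ccnd1 had no promoter site. Mmp9 and Ccnd1 had a CpG island, whereas Mmp3, Mmp10 and Mmp13 had none. Nearly all protein-coding genes with a promoter site, 3059 of 3078, had an island. A missing promoter site in Mmp3, Mmp10 and Mmp13 is therefore no departure from the background. Mmp9 and Mmp13 each had 1 site within 50 kb, and Mmp3, Mmp10 and Ccnd1 had no site in that range. No promoter site of the 4 lists held the AP-1 letters in its central 200 bp.

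**Figure D4:**
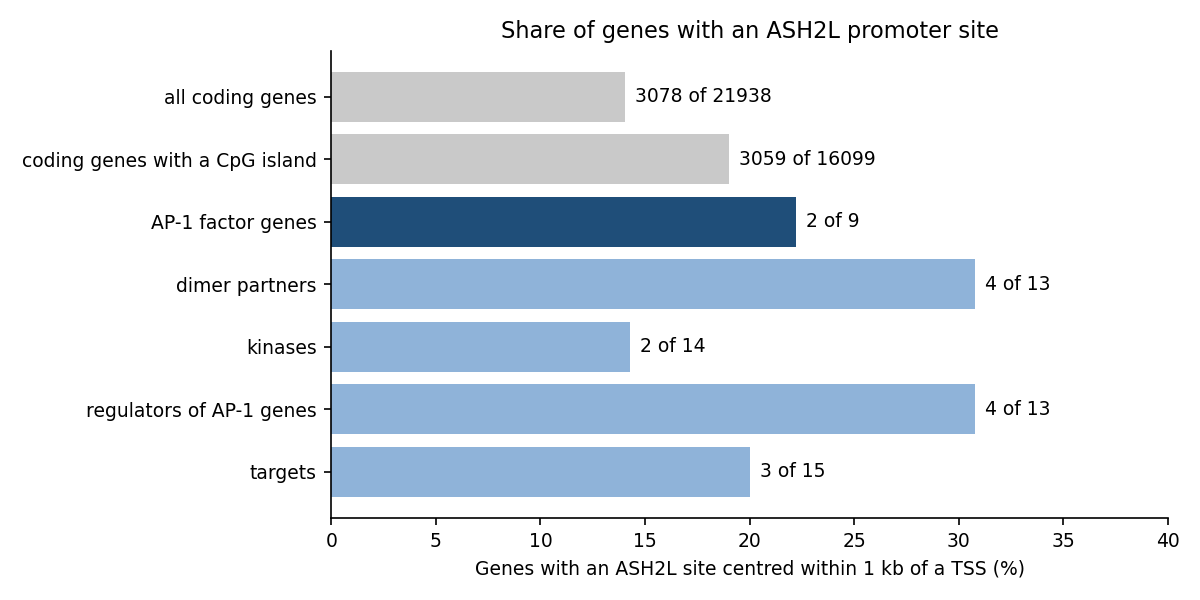
Percentage of genes with an ASH2L site centred within 1 kb of a TSS, for all protein-coding genes, those with a CpG island, the 9 AP-1 factor genes and the 4 lists, with the counts beside the bars. The AP-1 factor genes stand at 2 of 9 (22.2%) beside 14.0% and 19.0% in the background.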

How the data were processed

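ASH2L ChIP-seq and input libraries of iMEF cells were processed by the authors with Trim Galore, BWA (mm10), SAMtools, Picard (merged replicates) and MACS narrow peaks; the submitters' processing notes also name deepTools and DESeq2. The deposited values are positions (start and end of each site, unit other), read as counted from 0 and printed from 1. The labels name an antibody against Ash2l, whereas the study's text names HA antibodies, against the tag of the fusion protein. The list holds no score, so the authors' threshold and each sample's depth are not visible, and the table of changed sites was not used here.

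TSSs and exons came from GENCODE mouse release 21, an older release than the authors used. CpG islands were computed from GRCm38.p6 (at least 200 bp, GC over 50%, observed to expected CpG over 0.6). The AP-1 genes and the 4 lists were chosen with earlier results of these data known. Named were the 9 genes, the protein-coding gene with the TSS nearest to each site within 50 kb and, per list, up to 6 genes with a promoter site, the widest first, less a few items that are not reported here. Junos, Tmed10, Ift43, Calr and listed genes without a site were named after their values were seen. Alternatives changed window, TSSs, site set, distance, island and motif window. Functions were tested on simulated data (Python 3.11.15, NumPy 2.4.6, pandas 2.3.3, matplotlib 3.10.9).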

Additional observations from a re-analysis of the deposited data

How the results depend on the processing

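Of 33 alternatives over 9 results, 28 kept the count or share within 1.5 times its value. The count of AP-1 genes with a promoter site (2) was 0 with a window of 500 bp, 1 (Jun) with only the start of each gene, 1 (Jun) with protein-coding transcripts only, and 1 (Fosl1) with sites within 1 kb of each other merged, which moved the centre of the joined Jun site out of the window. It was 3 with a window of 2 kb or with any overlap, Fosl2 being added. The count of sites near an AP-1 gene with the AP-1 letters (1) was 2 with 500 bp at the centre, through the match beside the Fosl1 site. Sites of the smallest width were left out in place of a stricter peak threshold, and the same 3 genes then had a site within 3 kb. The RefSeq TSSs and the search for AP-1 or CRE letters were added after the data were seen. Within 25 kb 4 genes had a site, and within 100 kb 6 did.

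The list gives positions over all samples pooled. No replicate was left out and the dTAG groups were not compared, and signal below the authors' threshold is not shown. No paired analysis was possible because no result comes from a test over samples.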
